A study of Rattus norvegicus with 9 samples.

Results

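The genes described here build and run mitosis: the kinases and cyclins that start it, the kinetochore that ties chromosomes to the spindle, the checkpoint, the spindle motors and the proteins that split the cell. They were chosen by gene name from a list of 47, of which 46 were found among 32883 genes of the table; Ccnb2 was not analysed here. The tissue was the synovium, the lining of the joint, of Lewis rats, read by RNA sequencing in 9 libraries, 3 each of NC, AIA and TZG. The labels give these treatment codes without spelling them out. The series title names a liquid extract and rheumatoid arthritis, and on that basis NC is taken here to be control tissue, AIA tissue of the arthritis model, and TZG tissue after the extract. Whether TZG rats also had arthritis, and their dose, timing, age and sex, are not stated in the labels. Nor do they tie each library to a rat of its own. The p-values therefore speak to variation among these 9 libraries, part or all of which could be technical.

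A dividing cell switches on Cdk1 with cyclin B to enter mitosis, condenses its chromosomes, and attaches each sister chromatid through a kinetochore, a protein layer built on centromeres that carry the histone variant encoded by Cenpa. The spindle checkpoint holds the cell until all kinetochores are attached. The anaphase promoting complex with Cdc20 then marks securin and cyclin B for destruction, and the cell divides. Most of these genes are transcribed late in the cell cycle, so in a bulk tissue their RNA is a common readout of proliferating cells. In synovium, the cells that can contribute include lining fibroblasts and incoming leukocytes. In bulk samples such as these, fewer cells of a type and less RNA per cell cannot be told apart.

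All 46 genes had higher levels in TZG than in NC. By edgeR's quasi-likelihood test with Benjamini-Hochberg adjustment over 15068 genes, 44 of the 46 rose at an adjusted p under 0.05, and none fell. The median log2 fold change of the 46 was 2.67, a fold of 6.36, and the values ran from 1.24 for Smc2, a condensin subunit, to 3.71 for Kif2c, a kinesin that depolymerises microtubules. The median over all genes tested was -0.02, and 5.79% of all genes tested passed the same threshold upwards. Cdc25c (1.28 ± 0.36 SE, edgeR adjusted p = 0.0574) and Cenpk (1.65 ± 0.64 SE, edgeR adjusted p = 0.127) were the 2 that missed it. DESeq2 called 45 of the 46, against 9.57% of the genes it tested. In all 46 genes the 3 TZG libraries lay above the 3 NC libraries, which was so for 17.4% of all genes tested. The count of 44 depended on which libraries were kept, as did the calls over all genes, 873 of 15068 with all 9 libraries. It was 15 without C56, an NC library (libraries are called by their column names), where 150 of 15366 genes were called higher. Without G31, a TZG library, it was 23, where 317 of 15368 genes were called higher. The median of the 46 stayed between 2.496 and 2.90 when any 1 library was left out. It was 2.20 with only the libraries whose numbers match a sample title, which leaves G30 as the 1 TZG library.

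The same 46 genes also had log2 fold changes above 0 in AIA against NC, with a median of 2.18, a fold of 4.52, and a range from 0.59 to 3.23, beside a median of -0.01 over all genes tested. None passed the edgeR threshold after Benjamini-Hochberg adjustment, where 0.00664% of all genes tested passed upwards. The smallest adjusted p among them was 0.0779, for Ttk, and 20 were under 0.1. At an unadjusted p under 0.05 there were 44, all but Cdc25c and Cenpk, against 8.26% of all genes tested. DESeq2 called 38 of the 46 at an adjusted p under 0.05, against 3.38% of the genes it tested. In 40 of the 46 genes all AIA libraries lay above all NC libraries, against 11.2% of all genes tested; the exceptions were Cdc25c, Foxm1, Cenpk, Bub1, Anln and Racgap1. Without M2, an AIA library, edgeR called 26 of the 46, and 90 of all 15382 genes tested in that fit were called higher.

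None of these genes passed the test between TZG and AIA. All 46 log2 fold changes of TZG against AIA were above 0, with a median of 0.61, a range from 0.04 to 0.96 and standard errors from 0.26 to 0.61, beside a median of 0.00 over all genes tested. By edgeR 0% of all genes tested passed, and the adjusted p of the 46 ran from 0.353 to 0.982. DESeq2 also called none of the 46, against 1% of the genes it tested. Nuf2, Kif23 and Prc1 were the 3 at an unadjusted edgeR p under 0.05, against 6.2% of all genes tested. Nuf2, Bub1 and Prc1 were the 3 whose TZG libraries all lay above the AIA libraries, against 10.7% of all genes tested. Both counts, 3 of 46, are close to those shares. The median was 0.30 without M2 and 0.98 without M8. With only M6 and G30, the AIA and TZG libraries matched by number, it was 0.08, and 27 of the 46 were above 0. AIA and TZG were both set against the same 3 NC libraries, so their fold changes against NC share that part of their error. A p that misses the threshold does not show that the groups were alike.

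**Figure D1:**
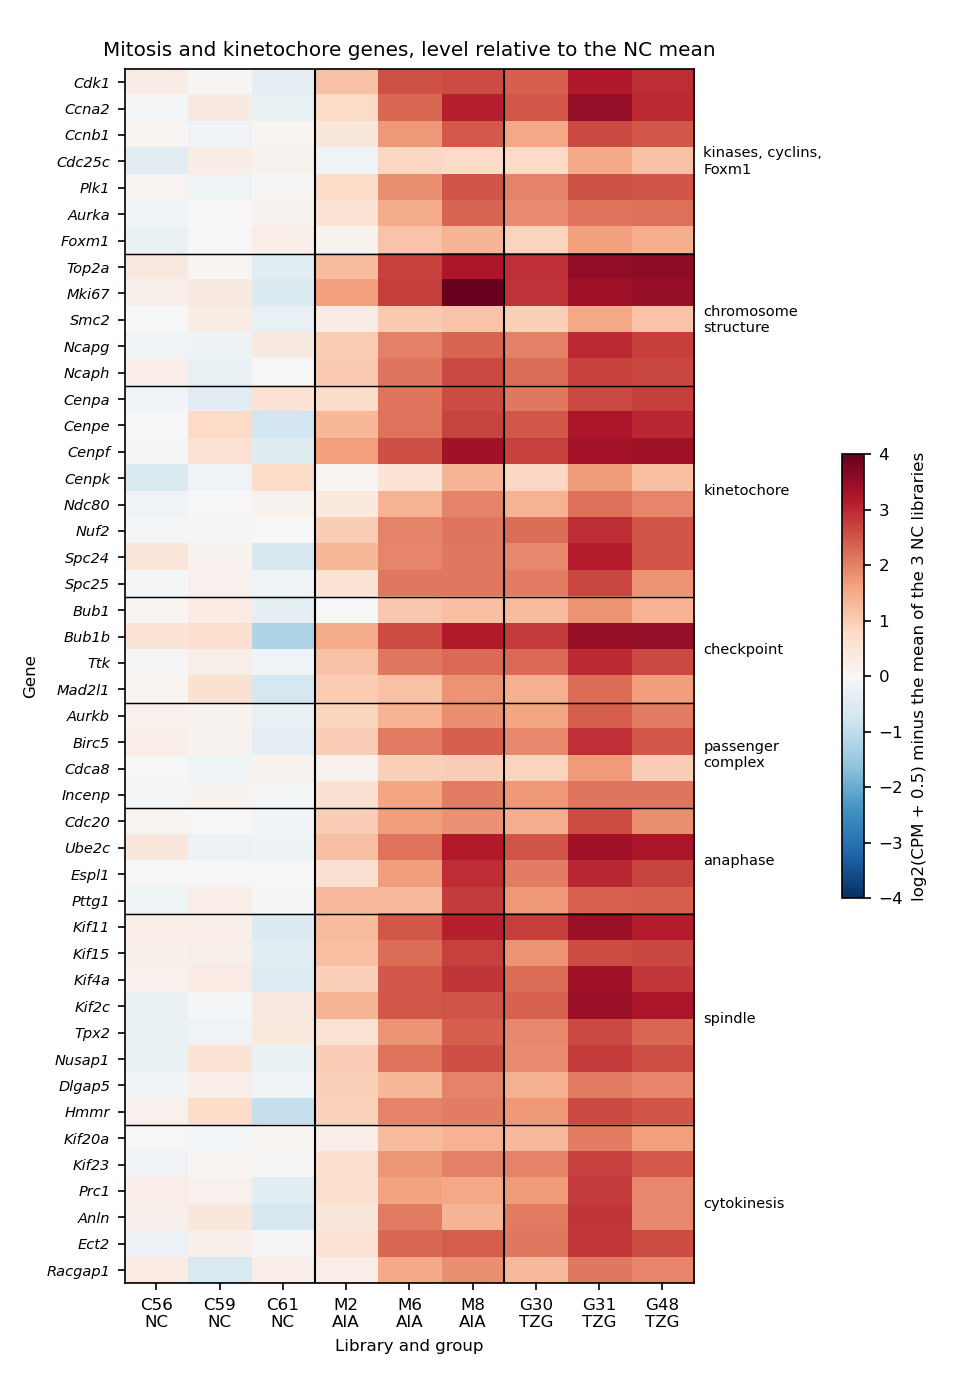
Level of each of the 46 genes in each of the 9 libraries, as log2(CPM + 0.5) minus the mean of the 3 NC libraries, ordered by role. The 6 AIA and TZG libraries are above the NC mean for nearly every gene, M2 is the palest of them, and M6 and M8 resemble the TZG libraries.

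The authors' deposited table gives its own fold changes and q-values. For TZG against NC the authors' deposited table has 44 of the 46 genes higher at a q-value under 0.05, beside 5.56% of the genes with a q-value. For AIA against NC the authors' deposited table has 36, beside 2.82%. The 10 that missed it were Cdc25c, Foxm1, Smc2, Cenpk, Bub1, Mad2l1, Cdca8, Kif20a, Anln and Racgap1. For TZG against AIA the authors' deposited table has 0 of the 46, beside 0.407% of the genes with a q-value.

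Promoters of genes of this kind often carry 2 short elements. The cell cycle genes homology region, spelled TTTGAA or TTCGAA, is bound by the MuvB complex, which represses these genes in resting cells and activates them in dividing cells. The CCAAT box is bound by NF-Y. RefSeq promoter sequence of the rat build GRCr8, from 250 bases before to 50 after the start, was matched by symbol for 39 of the 46 genes, with 40 entries since Kif2c has 2 starts; Ube2c, Incenp, Tpx2, Foxm1, Aurkb, Ccna2 and Racgap1 had no entry. Below are the 150 bases before the start of 7 genes, 5′ to 3′ along the gene, shown because their levels are described in full further on and because they cover the kinds of match: Cdk1, Cdc20, Top2a and Pttg1 with both elements, Ccnb1 and Birc5 with 1 of them, and Bub1 with neither. They were picked with the matches known.
Cdk1: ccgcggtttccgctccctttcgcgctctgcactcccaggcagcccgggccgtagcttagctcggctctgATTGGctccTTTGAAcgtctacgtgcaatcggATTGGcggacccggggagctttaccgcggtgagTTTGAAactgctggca
Ccnb1: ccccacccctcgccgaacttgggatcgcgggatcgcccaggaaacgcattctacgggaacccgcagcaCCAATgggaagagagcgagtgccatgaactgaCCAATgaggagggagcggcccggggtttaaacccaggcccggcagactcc
Cdc20: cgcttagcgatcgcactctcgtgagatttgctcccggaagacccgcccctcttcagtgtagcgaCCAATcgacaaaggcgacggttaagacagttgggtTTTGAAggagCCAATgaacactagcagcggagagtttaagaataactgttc
Top2a: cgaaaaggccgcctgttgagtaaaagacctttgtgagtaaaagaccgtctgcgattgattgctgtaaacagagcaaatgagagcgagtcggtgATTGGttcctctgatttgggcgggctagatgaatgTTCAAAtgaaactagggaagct
Pttg1: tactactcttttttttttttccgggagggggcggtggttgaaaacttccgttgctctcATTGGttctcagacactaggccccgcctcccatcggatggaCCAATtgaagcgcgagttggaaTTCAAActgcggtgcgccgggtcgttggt
Birc5: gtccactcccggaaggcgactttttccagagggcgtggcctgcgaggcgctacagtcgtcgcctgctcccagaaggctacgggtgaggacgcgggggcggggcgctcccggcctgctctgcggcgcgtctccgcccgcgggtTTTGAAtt
Bub1: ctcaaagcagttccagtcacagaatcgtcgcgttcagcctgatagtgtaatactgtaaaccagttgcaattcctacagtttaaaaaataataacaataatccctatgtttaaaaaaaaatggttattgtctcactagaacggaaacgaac
Capitals mark the matches, and a match on the opposite strand reads TTCAAA or ATTGG. The windows are chr20:19265143-19265292 (plus strand), chr2:33655226-33655375 (minus), chr5:137255800-137255949 (minus), chr10:84473094-84473243 (minus), chr10:28406327-28406476 (minus), chr10:103571996-103572145 (plus) and chr3:135504922-135505071 (minus), all in GRCr8. The Cdk1 window holds 2 TTTGAA and 2 CCAAT matches, interleaved, with the last TTTGAA starting 16 bases before the start. Ccnb1 has no TTTGAA match, but 2 CCAAT boxes whose first bases are 32 bases apart. Bub1 has neither motif in this window. Birc5 also has a CCAAT match starting at -213, outside the bases printed but inside the 300-base window counted below.

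Across the 40 entries and the whole 300-base window, searched on both strands, 28 held TTTGAA or TTCGAA. That is 70% of the entries, against 19.7% of all 33469 rat promoters in the RefSeq table and 13.8% of the 11710 promoters of genes tested here. CCAAT was found in 29 entries, or 72.5%, against 37.5% of all promoters and 36.8% of those of tested genes. Both kinds stood together in 22 entries, or 55%, against 7.95% and 5.63%. At least 2 CCAAT boxes were found in 21 entries, or 52.5%, against 11.2% and 13%. Within 50 bases on either side of the start, 19 entries held TTTGAA or TTCGAA, or 47.5%, against 5.65% of all promoters. Matches may share letters: in Mki67, whose protein coats mitotic chromosomes, a TTTGAA starting at -99 overlaps an ATTGG starting at -94. Aurka, Bub1, Ncaph and both Kif2c entries had no match, and Kif2c had the highest fold change in TZG against NC of the 46 while Bub1 was among the lowest. A match is a description of the letters and does not show that a factor binds there.

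**Figure D2:**
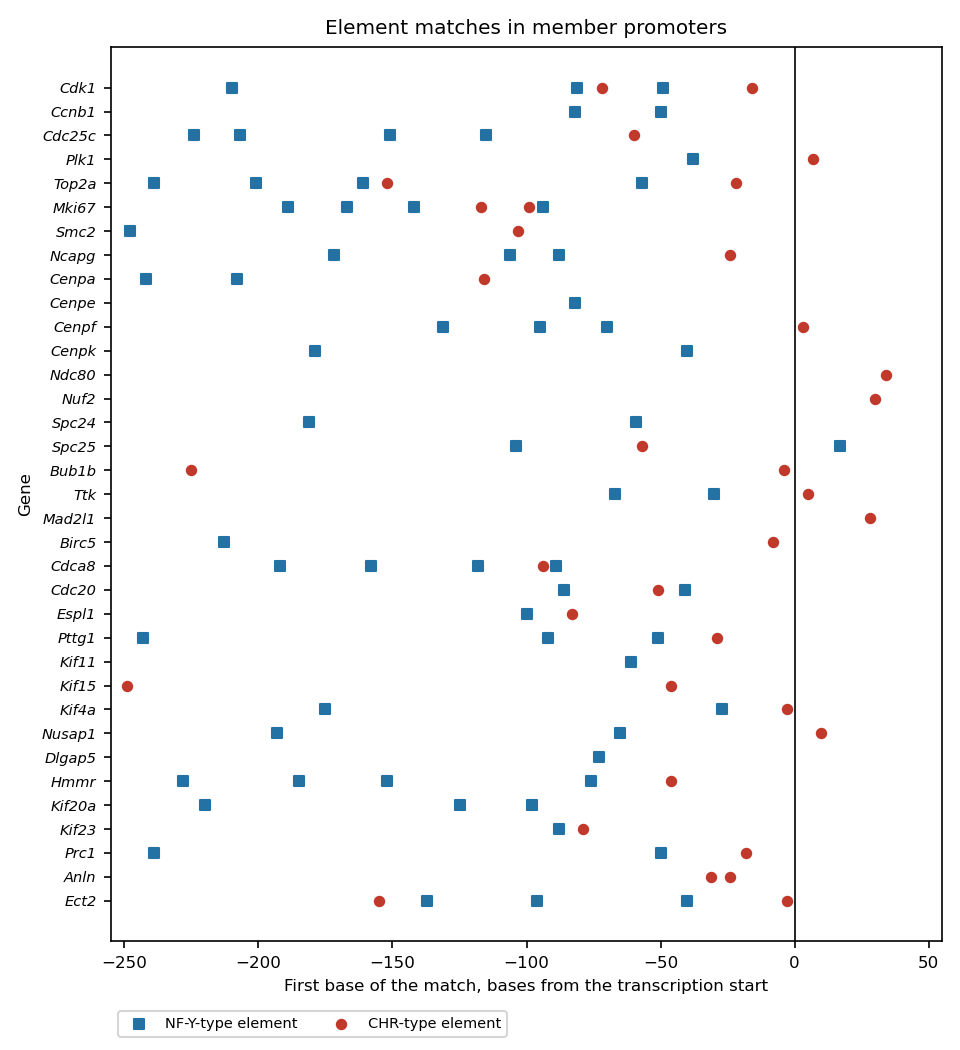
Position of each TTTGAA or TTCGAA match (CHR-type, circles) and each CCAAT match (NF-Y-type, squares) in the promoters of the 35 genes with a match, in bases from the transcription start, on both strands. Circles gather near the start and squares mostly upstream of it.

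The libraries hold from 12536231 to 16402126 counted reads, and values are given as CPM, read counts scaled to a common library total with TMM factors; 3 reads, the limit a count of 0 allows, are 0.190 to 0.265 CPM on that scale. Synovial fibroblast markers were high in every library but uneven, at a summed 9898 CPM in C61 to 88622 CPM in G48 over 10 genes. C56 and C59, also NC libraries, had 42727 and 53633 CPM. Of these 10 genes, 2 had a log2 fold change above 0 in AIA against NC. In TZG against NC 6 were above 0 and edgeR called 1 lower. Other tissue was not evenly spread either. The summed level of 10 skeletal muscle markers was 91.0, 1512 and 29271 CPM in C56, C59 and C61, the NC libraries. It was 15.8 to 43.3 CPM in AIA and 16.9 to 57.4 CPM in TZG. In TZG against NC edgeR called 7 of the 10 lower, against 682 of all 15068 genes tested. The 11 cartilage markers summed to 9439 CPM in G48 and at most 811 CPM elsewhere. The numbers of 5 columns match sample titles of their group (C56, C59, C61, M6, G30); M2, M8, G31 and G48 were placed by their letter alone.

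Among the mitotic kinases and cyclins, 6 of 7 rose in TZG against NC, with a median log2 fold change of 2.496, and none of the 7 passed in AIA against NC, where the median was 1.94. Cdk1, the kinase that drives entry into mitosis (chr20:20576377-20591549 in the deposited table, whose build is not given), was at 3.17, 2.57 and 1.85 CPM in NC, 6.23, 17.0 and 17.6 CPM in AIA and 15.3, 26.7 and 22.7 CPM in TZG. Every AIA and TZG library was above every NC library, and M2 was the lowest of the 6. Its log2 fold change was 3.07 ± 0.43 SE in TZG against NC (edgeR adjusted p = 0.0135), 2.42 ± 0.43 in AIA against NC (adjusted p = 0.0923) and 0.66 ± 0.39 in TZG against AIA (adjusted p = 0.497). Ccnb1, cyclin B1, its mitotic partner, was at 2.73, 2.30 and 2.73 CPM in NC, 3.74, 9.71 and 16.4 CPM in AIA and 8.46, 18.5 and 16.9 CPM in TZG. NC again lay below all others, while M8 exceeded G30 and came close to G48. Its log2 fold change was 2.496 ± 0.52 SE in TZG against NC (edgeR adjusted p = 0.0255) and 1.94 ± 0.52 in AIA against NC (adjusted p = 0.137). Plk1, the polo kinase of spindle assembly and mitotic exit, was at 2.92, 2.30 and 2.73 CPM in NC, 4.84, 11.0 and 17.6 CPM in AIA and 11.9, 17.9 and 17.4 CPM in TZG. NC was again the lowest, and M8 lay among the TZG libraries. The log2 fold change from NC to TZG was 2.57 ± 0.43 SE (edgeR adjusted p = 0.0156). Foxm1 encodes a transcription factor of the G2 and M phase genes. It was at 4.19, 5.13 and 6.17 CPM in NC, 5.72, 11.9 and 13.9 CPM in AIA and 9.86, 17.2 and 14.9 CPM in TZG. Here AIA and NC overlapped, since M2 fell within the NC range, and TZG did not overlap NC. Its log2 fold change of 1.44 ± 0.35 SE in TZG against NC (edgeR adjusted p = 0.0376) was smaller than those of Cdk1 and Plk1. Ccna2, cyclin A2, gave 3.27 and Aurka, the centrosome kinase, 2.28 in the same comparison, and both passed. Ccna2 overlaps Exosc9 on the chromosome, and whether strand was used in counting is not given in the sources used here. Cdc25c, the phosphatase that activates Cdk1, had 1.28 and did not pass.

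All 5 genes of chromosome structure rose in TZG against NC, with a median log2 fold change of 3.11; the median in AIA against NC was 2.33 and none passed. Mki67, the proliferation antigen Ki-67 (chr1:207993895-208020454), was at 11.5, 13.03 and 6.62 CPM in NC, 32.2, 71.0 and 192 CPM in AIA and 77.4, 109 and 117 CPM in TZG. M8 was the highest of the 9 libraries, above all of TZG. Its log2 fold change was 3.27 ± 0.61 SE in TZG against NC (edgeR adjusted p = 0.0193) and 3.23 ± 0.61 in AIA against NC (adjusted p = 0.0944), while TZG against AIA gave 0.04 ± 0.55, the value nearest to 0 among the 46. Top2a, the topoisomerase that untangles sister chromatids, was at 8.50, 6.98 and 4.76 CPM in NC, 16.3, 46.8 and 66.4 CPM in AIA and 52.8, 82.1 and 84.7 CPM in TZG. G48 was the highest library here, and M2 the lowest outside NC. In TZG against NC the log2 fold change was 3.43 ± 0.50 SE (edgeR adjusted p = 0.0141). The condensin subunits differed in size: Ncapg had 3.11 and Ncaph 2.82 in TZG against NC, and Smc2, the subunit shared by both condensin complexes, 1.24 ± 0.26 SE (edgeR adjusted p = 0.0261).

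In the centromere and kinetochore group 7 of 8 rose in TZG against NC, with a median of 3.02, and none of 8 passed in AIA against NC, with a median of 2.25. Cenpa, the centromeric histone, was at 0.317, 0.132 and 0.794 CPM in NC, 0.953, 3.39 and 4.82 CPM in AIA and 3.27, 4.98 and 5.43 CPM in TZG. NC rested on only 16 reads over the 3 libraries, and every AIA and TZG library exceeded it. TZG against NC gave 3.50 ± 0.72 SE (edgeR adjusted p = 0.0244). Ndc80, whose complex binds microtubule ends, was at 2.79, 3.09 and 3.44 CPM in NC, 4.25, 9.03 and 13.8 CPM in AIA and 8.86, 16.2 and 13.3 CPM in TZG. M2 was again closest to NC without reaching it. The log2 fold change from NC to TZG was 2.04 ± 0.41 SE (edgeR adjusted p = 0.0232). Spc24, a subunit of the same complex, was at 0.951, 0.658 and 0.176 CPM in NC, 2.13, 3.53 and 4.00 CPM in AIA and 3.47, 8.72 and 5.49 CPM in TZG. Its highest values were in G31 and G48, and NC did not overlap AIA or TZG. In TZG against NC the log2 fold change was 3.24 ± 0.56 SE (edgeR adjusted p = 0.0165). The other subunits of that complex, Nuf2 and Spc25, had 3.05 and 2.84 in TZG against NC, so all of its 4 subunits rose. Cenpe, a kinetochore motor, had 2.99 and Cenpf, a kinetochore protein of the fibrous corona, 3.31, both past the threshold. Cenpk, of the inner kinetochore, had 1.65 ± 0.64 SE and did not pass, and it overlaps Ppwd1 on the chromosome. Nuf2 had the smallest edgeR adjusted p of the 46 in TZG against AIA, 0.353, with 0.89 ± 0.34 SE.

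All 4 checkpoint genes rose in TZG against NC, with a median of 2.47; the median in AIA against NC was 1.85. Bub1, a checkpoint kinase at the kinetochore and the gene whose promoter window above holds neither motif, was at 8.69, 10.3 and 6.09 CPM in NC, 8.36, 17.6 and 19.5 CPM in AIA and 20.3, 29.6 and 22.3 CPM in TZG. M2 lay inside the NC range, and all TZG libraries lay above all AIA and NC libraries. TZG against NC gave 1.52 ± 0.33 SE (edgeR adjusted p = 0.0283) and AIA against NC 0.86 ± 0.33 (adjusted p = 0.269). Its relative Bub1b, which encodes BubR1, had a larger 3.44 in TZG against NC. Ttk, the Mps1 kinase that starts the checkpoint signal, had 3.04 and Mad2l1, its Mad2 effector, 1.90.

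All 4 genes of the chromosomal passenger complex, which corrects faulty attachments, rose in TZG against NC, with a median of 2.12, and 1.55 in AIA against NC, where none passed. Aurkb, its kinase, was at 5.33, 5.27 and 3.70 CPM in NC, 9.09, 13.1 and 18.5 CPM in AIA and 15.1, 27.4 and 21.0 CPM in TZG. The 3 groups stepped upward in their means, and NC stood apart from the rest. The log2 fold change from NC to TZG was 2.14 ± 0.32 SE (edgeR adjusted p = 0.0142) and AIA against NC 1.504 ± 0.32 (adjusted p = 0.0990). Birc5, survivin, which brings the complex to centromeres, was at 1.27, 1.12 and 0.617 CPM in NC, 2.42, 5.70 and 7.17 CPM in AIA and 5.13, 10.6 and 7.67 CPM in TZG. NC did not overlap the other groups, and G31 was the highest library. In TZG against NC the log2 fold change was 2.93 ± 0.49 SE (edgeR adjusted p = 0.0150). Incenp, the scaffold, had 2.09 and Cdca8, borealin, 1.31, so members of this one complex differed in the size of their fold change.

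All 4 genes of anaphase and sister separation rose in TZG against NC, with a median of 2.79, and 2.38 in AIA against NC, where none passed. Cdc20, the activator of the anaphase promoting complex, was at 4.69, 4.41 and 3.97 CPM in NC, 9.02, 14.9 and 16.8 CPM in AIA and 12.9, 29.1 and 17.0 CPM in TZG. NC lay below every other library, and M6 and M8 lay between G30 and G48. TZG against NC gave 2.17 ± 0.34 SE (edgeR adjusted p = 0.0143). Ube2c, the ubiquitin conjugating enzyme that works with that complex, was at 2.09, 1.12 and 1.15 CPM in NC, 3.88, 8.01 and 16.6 CPM in AIA and 10.3, 19.2 and 17.9 CPM in TZG. All AIA and TZG libraries exceeded NC. The log2 fold change from NC to TZG was 3.42 ± 0.56 SE (edgeR adjusted p = 0.0150). Pttg1, securin, the inhibitor that the complex destroys, was at 0.698, 1.12 and 0.794 CPM in NC, 2.86, 2.85 and 9.03 CPM in AIA and 4.07, 6.50 and 6.64 CPM in TZG. M8 was the highest of the 9, and M2 and M6 were nearly equal. In TZG against NC the log2 fold change was 2.71 ± 0.53 SE (edgeR adjusted p = 0.0208) and TZG against AIA 0.22 ± 0.47 (adjusted p = 0.869). Espl1, separase, the protease that securin holds back, had 2.88 in TZG against NC.

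All 8 spindle genes rose in TZG against NC, with a median of 2.67; the AIA median was 2.34 and none passed. Kif11, the kinesin that pushes spindle poles apart, was at 3.11, 3.16 and 1.59 CPM in NC, 6.82, 16.3 and 25.8 CPM in AIA and 19.99, 31.8 and 26.1 CPM in TZG. NC lay below all other libraries, and G31 was the highest. TZG against NC gave 3.29 ± 0.49 SE (edgeR adjusted p = 0.0142). Kif2c (chr5:136027934-136053210) had 3.71 ± 0.50 SE (edgeR adjusted p = 0.0133), from 33 reads in the 3 NC libraries together. The other motors were Kif4a, a chromosome arm kinesin, with 3.22, and Kif15, a kinesin that helps keep spindles bipolar, with 2.69; Kif15 overlaps RGD1311745 on the chromosome. The microtubule proteins Tpx2, Nusap1, Dlgap5 and Hmmr, which nucleate, bundle or stabilise spindle fibres, had 2.40, 2.65, 1.91 and 2.40.

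All 6 genes of the midzone and cytokinesis rose in TZG against NC, with a median of 2.37; in AIA against NC the median was 1.56 and none passed. Ect2, the exchange factor that activates RhoA at the cleavage site, had 2.89, and Racgap1, the centralspindlin subunit that binds it, 2.12. Kif23, the centralspindlin kinesin, had 2.61 and Anln, the actin-binding anillin of the contractile ring, 2.497. Prc1, which crosslinks midzone microtubules, had 2.25, and Kif20a, a midzone kinesin that shares 1910 bases with Cdc23 on the chromosome, 1.76. In TZG against AIA, Anln had the largest value of the 46, 0.96 ± 0.50 SE (edgeR adjusted p = 0.448), and Prc1 0.90 ± 0.37 SE (adjusted p = 0.377).

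**Figure D3:**
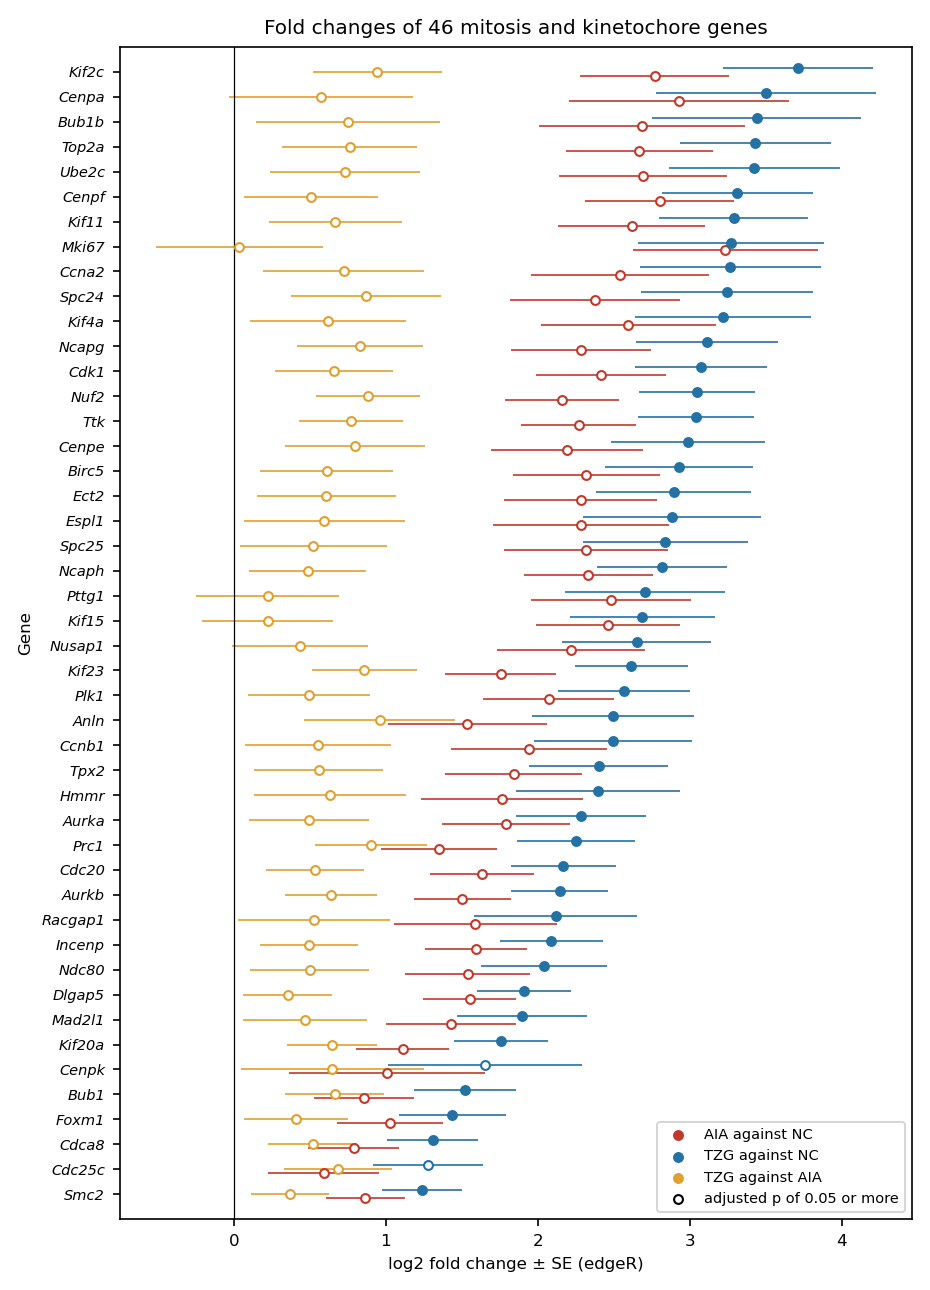
Log2 fold change with its SE for each of the 46 genes in the 3 comparisons, ordered by TZG against NC. Filled points had an edgeR adjusted p under 0.05: 44 in TZG against NC and none in the other comparisons, where AIA against NC follows at a median of 2.18 and TZG against AIA at 0.61.

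Levels were compared between genes per length. In FPKM (the read count scaled by gene length and by library total) recomputed from the counts, Smc2 was the highest of the 46 in NC at 4.62 ± 1.14 FPKM (SD, n = 3), followed by Cdca8 at 3.46 ± 0.289, Prc1 at 2.68 ± 0.814 and Kif20a at 2.42 ± 0.0559, and Cenpa was the lowest at 0.154 ± 0.119. Smc2 and Cdca8 had some of the smallest fold changes, and Cenpa one of the largest. In AIA, Mki67 led at 10.1 ± 8.51 FPKM and Smc2 followed at 8.86 ± 2.58. In TZG, Prc1 led at 13.5 ± 6.38 FPKM, before Top2a at 11.7 ± 2.59 and Smc2 at 11.5 ± 2.83. Cenpk was the lowest in both, at 0.974 ± 0.577 and 1.54 ± 0.599 FPKM. In each group, every gene's range over the 3 libraries overlapped that of the next gene in the order, so neighbours were not separated. As a share of the summed CPM of the 46, Smc2 took 15.5% in NC and 6.89% in TZG, and Mki67 6.24% in NC, 14.4% in AIA and 11.5% in TZG.

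Some libraries held the same place in most genes, and others did not. Summed over the 46 genes, the level was 166, 186 and 140.0 CPM in NC, 292, 619 and 926 CPM in AIA (M2, M6, M8), and 648, 1093 and 919 CPM in TZG (G30, G31, G48). The group means were 164 ± 22.9, 612 ± 317 and 887 ± 224 CPM (SD, n = 3). AIA spread about its mean far more than NC did, and AIA and TZG overlapped. M2 was the lowest AIA library in 45 of the 46 genes, the exception being Pttg1, and G31 was the highest of all 9 libraries in 38. G30 was the lowest TZG library in 44, and it was close to M6: 27 of 46 genes were higher in G30, with a median ratio of 1.06. M8 was the highest AIA library in 43 genes. The NC libraries changed places: C61 was the lowest of them in 25 genes, C56 in 12 and C59 in 9. Over all 9 libraries, M8 was the highest for Aurka, Mki67, Pttg1 and Kif15, and G48 for Top2a, Cenpa, Cenpf and Bub1b.

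Markers of other cells moved with these sums in part. For the counts below, 5.79% of all 15068 genes tested were called higher in TZG against NC, and 682 genes lower. Log2 fold changes were above 0 for 48.9% of all genes tested in AIA against NC. That share was 48.3% in TZG against NC and 50.2% in TZG against AIA. The summed level of 6 leukocyte markers, including Ptprc and Coro1a, was 220.2 to 368 CPM in NC, 423 to 825 CPM in AIA and 631 to 997 CPM in TZG; in both AIA and TZG no library overlapped NC. The 10 markers of marrow granulocyte precursors, which divide, summed to 41.0 to 111 CPM in NC. They summed to 206, 220.2 and 1546 CPM in M2, M6 and M8, and to 660.5, 193 and 1681 CPM in G30, G31 and G48. Of the 9 tested, 9 were above 0 in AIA against NC and 9 in TZG against NC, where edgeR called 5 higher. Prtn3, Ctsg and Ms4a3 had 0 reads in all 3 NC libraries, and Elane and Camp in 2 of them; Ltf was at 0 in 8 of the 9 libraries. The library with the highest mitotic sum, G31, had the lowest precursor sum of the AIA and TZG libraries. M8 and G48, next in mitotic sum at 926 and 919 CPM, had the highest precursor sums. M2, the lowest in mitotic sum outside NC at 292 CPM, was next above G31 in precursor sum. The 10 mature neutrophil markers, which nondividing cells carry, gave 15.8 to 34.9 CPM in NC, 288 to 2509 CPM in AIA and 472 to 3523 CPM in TZG, with G31 the lowest in TZG. All 10 were above 0 in AIA against NC and in TZG against NC, where edgeR called 8 higher. The 13 erythroid markers gave 221 to 663 CPM in NC, 691 to 5193 CPM in AIA, highest in M8, and 448 to 1079.8 CPM in TZG. Gene by gene, 12 of the 13 had a log2 fold change above 0 in AIA against NC, with a median of 6.05. In TZG against NC 12 were above 0, with a median of 4.12, and edgeR called 3 higher and 1 lower. In TZG against AIA 0 of the 13 were above 0. The 11 B and plasma cell markers summed to 179 to 220.3 CPM in NC, 217 to 384 CPM in AIA and 259 to 391 CPM in TZG, so that TZG did not overlap NC while AIA did. Of the 10 tested, 9 had a log2 fold change above 0 in AIA against NC and 10 in TZG against NC, where edgeR called 1 higher. The 15 T and NK cell markers summed to 46.05 to 205 CPM in NC, 136 to 217 CPM in AIA and 121 to 220 CPM in TZG, which overlapped. Gene by gene, however, 14 of the 15 had a log2 fold change above 0 against NC in AIA and 14 in TZG, where edgeR called 5 higher. The 10 macrophage markers also overlapped in sum, at 440 to 1980.4, 1095 to 1782 and 1289 to 1658 CPM, with 8 above 0 in AIA against NC and 6 in TZG against NC, where 1 was called lower. The 9 bone markers summed to at most 36.6 CPM in NC, 30.3 to 138 CPM in AIA and 246 to 2787 CPM in TZG, and all 9 were above 0 in TZG against NC, with 1 called higher. The 9 adipocyte markers summed to 4022 to 14206 CPM in NC, 11246 to 12637 CPM in AIA and 3524 to 8568 CPM in TZG. In TZG against AIA 0 of the 9 were above 0, and edgeR called 0 of them and 0 of all 15068 genes tested. The 8 endothelium markers summed to 1759 to 2458 CPM in NC, 1938 to 2251 CPM in AIA and 1546 to 1827 CPM in TZG. Of the 7 tested, 1 was above 0 in TZG against NC, and edgeR called 2 lower. The part of these cells in the result was not tested. C61, M8 and G48 were the libraries that stood apart in muscle, erythroid, granulocyte or cartilage markers. Without them edgeR called 40 of the 46 in TZG against NC, with a median of 2.58. In that fit 1155 of all 15002 genes tested were called higher. In AIA against NC edgeR then called none of the 46, with a median of 1.61, and 94 of all genes tested were called higher.

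**Figure D4:**
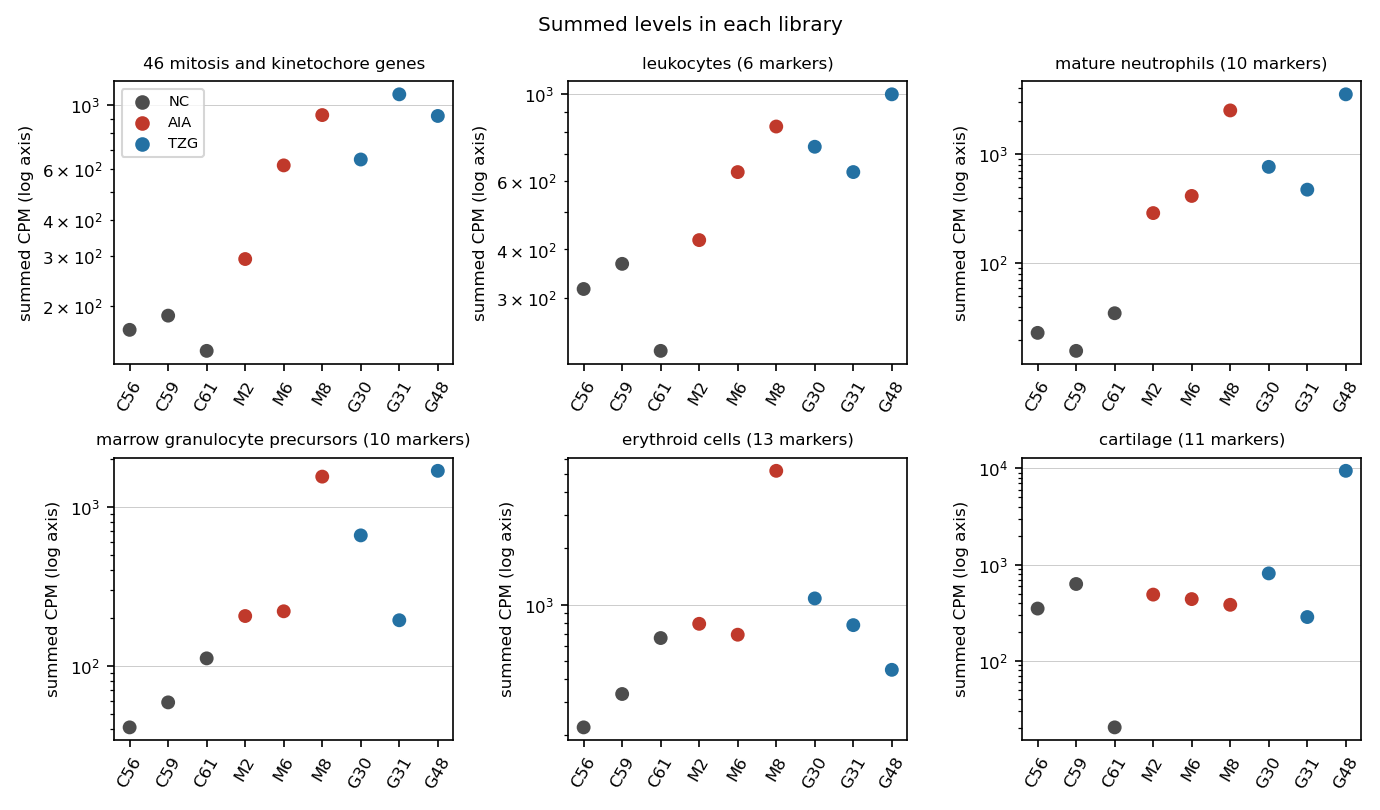
Summed CPM on a log axis in each of the 9 libraries for the 46 genes and for 5 sets of markers, coloured by group. The 46 genes run from 140.0 CPM in C61 to 1093 CPM in G31. Leukocyte markers lie above NC in every AIA and TZG library, and AIA and TZG overlap. They peak in G48, as granulocyte and cartilage markers do, and erythroid markers peak in M8.

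Genes of the same processes that are not among the 46, from 9 lists, differed from list to list in TZG against NC. Over all 15068 genes tested in that comparison, 5.79% were called higher and 682 genes lower. Of 23 other spindle and cytokinesis genes tested 20 rose and 1 fell, with a median log2 fold change of 2.39. Fam83d, a spindle protein, had 2.78 ± 0.38 SE (edgeR adjusted p = 0.0133) and Troap, a spindle pole protein, 3.21 ± 0.45 (adjusted p = 0.0133). Numa1, which anchors spindle poles, fell, at -0.45 ± 0.11 SE (adjusted p = 0.0366). Of 21 other regulators of mitotic entry and exit 14 rose, with a median of 2.14. Pbk, a mitotic kinase, had 4.04 ± 0.64 SE (edgeR adjusted p = 0.0143), and Mastl, the Greatwall kinase, 2.91 ± 0.49 (adjusted p = 0.0153). Of 31 other kinetochore and centromere genes 16 rose, with a median of 1.66, among them Sgo2, a shugoshin that protects cohesion, with 3.33 ± 0.51 SE (edgeR adjusted p = 0.0142), and Hjurp, the chaperone of the Cenpa histone, with 2.79 ± 0.45 (adjusted p = 0.0145). Of 35 DNA replication genes 24 rose and 1 fell, with a median of 1.39. Tk1, thymidine kinase, had 3.34 ± 0.52 SE (edgeR adjusted p = 0.0143) and Mcm3, a helicase subunit, 2.22 ± 0.36 (adjusted p = 0.0145), while Cdc45, a cofactor of that helicase, fell, at -1.43 ± 0.36 SE (adjusted p = 0.0413).

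The other lists had medians nearer to 0. Of 15 anaphase promoting complex subunits 1 rose, Cdc16 with 0.43 ± 0.11 SE (edgeR adjusted p = 0.0399), and the median was 0.09. A count of 1 in 15 is near the 5.79% of all genes tested that were called higher. The next by p, Anapc11, had 0.33 ± 0.12 SE (adjusted p = 0.120). Of 14 condensin and cohesin genes 4 rose, with a median of 0.13, among them Esco2, a cohesin acetyltransferase, with 3.15 ± 0.60 SE (edgeR adjusted p = 0.0199), and Ncapd2, a condensin subunit, with 1.59 ± 0.32 (adjusted p = 0.0224). Of 21 genes of the E2F, RB and MuvB regulators 4 rose, with a median of 0.32. E2f8, an atypical E2F repressor, had 5.16 ± 0.82 SE (edgeR adjusted p = 0.0143) from 8 reads in NC, 258 in AIA and 317 in TZG, and Tfdp1, the partner of E2F proteins, 0.74 ± 0.14 (adjusted p = 0.0193). Of 7 G1 cyclins and kinases 1 rose and 1 fell, with a median of 0.52: Ccnd3, cyclin D3, had 0.86 ± 0.20 SE (edgeR adjusted p = 0.0329) and Ccnd1, cyclin D1, -1.48 ± 0.30 (adjusted p = 0.0226). Of 10 CDK inhibitors and p53 targets none passed, and the median was 0.08; Ccng1 had -0.72 ± 0.35 SE (edgeR adjusted p = 0.212) and Cdkn1c 1.60 ± 0.80 (adjusted p = 0.223). In AIA against NC and in TZG against AIA edgeR called 0 genes in every one of the 9 lists. Over all 15068 genes tested it called 1 higher and 1 lower in AIA against NC, and 0 in TZG against AIA. Without C56 the counts that rose in TZG against NC were 5 of the spindle list, 2 of entry and exit, 2 of kinetochore and 1 of DNA replication, and without G31 they were 6, 4, 4 and 6. Calls higher over all genes tested fell as well, from 873 to 150 without C56 and 317 without G31. With any other library left out they numbered at most 821. Of the lists with fewer calls, the 4 condensin and cohesin genes became 0 without C56, C59 or G31 and 2 without C61, M6 or G30, and the 4 of the E2F, RB and MuvB list became 1 without C56, 2 without C59 or G31 and 6 without M8. The 1 gene called higher of the anaphase promoting complex became 0 without any library but C61, and that of the G1 list became 0 without C56, C59, G30, G31 or G48.

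**Figure D5:**
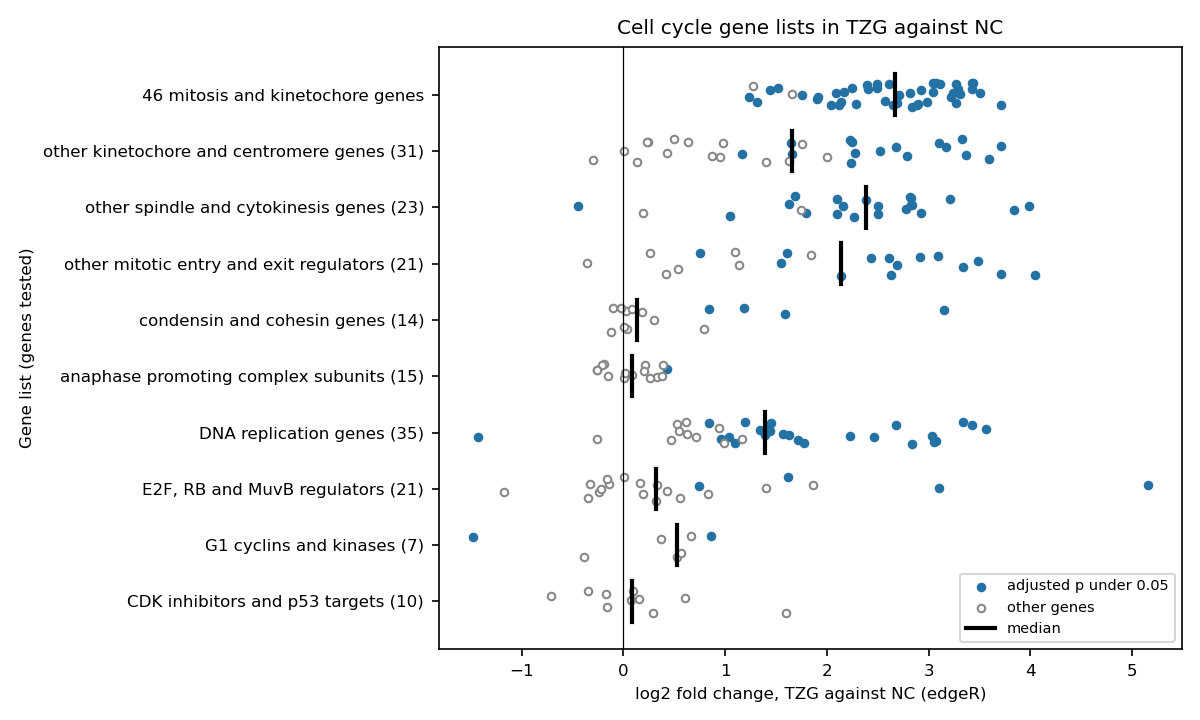
Log2 fold change of TZG against NC for each gene of 9 other cell cycle lists and of the 46 genes, with filled points for an edgeR adjusted p under 0.05 and a bar at each median. Medians run from 2.67 for the 46 genes and 2.39 for other spindle and cytokinesis genes to 0.08 for CDK inhibitors and p53 targets.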

How the data were processed

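RNA was sequenced from the synovium of Lewis rats in 9 libraries. RNeasy kits gave the RNA and a SMARTER mRNA-Seq kit the libraries, per the labels' protocols. Per the submitters' processing notes, edgeR 3.30.3, StringTie 1.3.3b, HISAT2 and fastp took part, in roles the notes as held here leave unsaid; which build and which annotation were used is not given in the sources used here. Gene-level read counts, whole and not normalised, were deposited by the authors. They also deposited FPKM values, with the authors' mean per group, and for each comparison their own log2 fold change with its p-value and q-value. The 2 deposited tables are identical.

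Column names carry a letter and a number. Of the 9 columns 5 have a number that is a sample title of their group, and 4 were placed by letter; the authors' mean FPKM matched the means by letter to within 1.07e-04 in relative terms. The 4 FPKM columns placed by letter were not used; FPKM was recomputed from the counts, using gene lengths that the other 5 FPKM columns imply. No libraries were duplicates (chi-square per gene at least 21.4 between any pair).

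Counts were fitted in edgeR 4.0.16 (R 4.3.3) with TMM factors, filterByExpr and the robust quasi-likelihood test, all 9 libraries in 1 fit, with Benjamini-Hochberg adjustment over 15068 genes and a threshold of 0.05; all 46 genes found passed the filter. Each SE was taken from the log2 fold change and its F statistic (the absolute value over the root of F). The fit was also run on simulated counts, which gave every gene the same spread and held no outlying libraries. That run cannot show how the fit behaves with libraries such as C61, M8 and G48, and no conclusion is drawn from it. DESeq2 1.42.0, limma-voom 3.58.1, other scalings and filters, and leaving out libraries were alternatives. Depth was 12536231 to 16402126 reads per library, and limits from it cover counting error only. The genes and all lists were chosen with earlier results of these data known. All 46 genes are named, with values per library for a chosen 16 from 7 of the 8 roles; of each other cell cycle list, the 2 genes with the smallest p in TZG against NC and any that passed in the opposite direction are named. Spag5, which has 2 rows, was left out. Elements were counted in RefSeq GRCr8 promoters.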

Additional observations from a re-analysis of the deposited data

How the results depend on the processing

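No paired analysis was possible because the labels give the groups no shared replicate numbers. The members higher past the threshold in TZG against NC (44) numbered 15 to 45 when 1 library was left out. The count was lowest without C56 and next without G31 (23). Calls over all genes tested also fell there, from 873 to 150 and 317. limma-voom gave 38, where 619 of 15068 genes were called higher, and DESeq2 45. The median of the members, 2.67, ran from 2.496 to 2.90 when 1 library was left out. It was 2.20 with only the libraries matched by number. That setting leaves AIA and TZG with 1 library each, assumed to vary like NC. In AIA against NC the count of 0 became 38 with DESeq2 and ran from 0 to 26 when 1 library was left out. It was 26 without M2, where 90 of 15382 genes were called higher. The median there, 2.18 with all 9 libraries, ran from 1.64 to 2.47 when 1 library was left out. It was 1.61 without C61, M8 and G48 together, a setting chosen after seeing the data. In TZG against AIA the count was 0 under every setting tried and the median, 0.61, ran from 0.30 without M2 to 0.98 without M8. With only the libraries matched by number it was 0.08 and 27 of the 46 were above 0; of the 16 genes with values per library, Cdk1 (-0.16), Ccnb1 (-0.20), Foxm1 (-0.27), Cenpa (-0.0537), Ndc80 (-0.0247), Spc24 (-0.0246), Birc5 (-0.15) and Cdc20 (-0.21) changed sign. Leaving out 1 library, Mki67 ran from -0.38 to 0.97 and Pttg1 from -0.0518 to 1.005. The share of promoters with TTTGAA or TTCGAA, 70%, was 45% in the 150 bases before the start, against 9.74% of all promoters. The causes of these differences were not tested. Leaving out libraries changes both their number and which ones remain, and the last result used a shorter window. TMM, RLE and upper-quartile scaling, and filters on low counts, left the 44 calls in TZG against NC at 44.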
